A study of Drosophila melanogaster with 2 samples.

Results

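Daughterless peaks that lie inside introns, far from any transcription start site (TSS), made up 255 of the 1941 peaks (13.1%) in the authors' thresholded list. They were chosen by position alone. The summit had to lie inside the span of a protein-coding gene, in no annotated exon of a protein-coding gene, and more than 3000 bp from the nearest protein-coding TSS. The chromatin was from whole Drosophila melanogaster embryos whose line stably carries daughterless (da) fused at its C-terminus to green fluorescent protein (GFP), and an antibody against GFP precipitated it. The embryos were 0 to 24 h old, of mixed sex, and formed 1 group of 2 biological replicates, numbered 2 and 3. The labels do not give the promoter that drives the tagged gene, and whole embryos mix all tissues and ages, so a site used in few cells and a site weakly used in many cannot be told apart.

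Daughterless is the fly's E protein, a basic helix-loop-helix factor that pairs with tissue-specific partners such as the proneural proteins and binds E-boxes of the form CANNTG. Much of the regulatory DNA of fly developmental genes lies in long introns, where enhancers are bound by combinations of factors. In the peak lists, a peak is a region with more sequenced fragments than a control, its summit is its highest position, and its signal is the height that the authors' caller deposited. Coordinates are 1-based in dm6, with genes from Ensembl BDGP6.54. A TSS named without its gene type is that of a protein-coding gene.

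The sequences of 3 of the strongest peaks are shown to give the range of their make-up, since high signal went with and without an E-box. Each is the plus strand of 101 bp centred on the summit, from the Release 6 assembly, with every CANNTG in capitals. The peak in osa lies at 3R:17704366-17704466, that in brat at 2L:19155122-19155222 and that in Gug at 3L:8458283-8458383.
osa: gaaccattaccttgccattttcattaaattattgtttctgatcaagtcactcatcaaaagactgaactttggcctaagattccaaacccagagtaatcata
brat: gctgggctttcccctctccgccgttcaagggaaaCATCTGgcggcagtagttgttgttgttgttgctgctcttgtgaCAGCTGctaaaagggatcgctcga
Gug: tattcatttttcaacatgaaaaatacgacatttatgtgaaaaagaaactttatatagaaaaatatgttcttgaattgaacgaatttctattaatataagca

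The E-box forms seen most often at these summits were CAGCTG (26 summits), CAAATG (25) and CAGATG (24). The next 7 sequences carry CAGCTG and are those of highest signal after brat. Each shows 18 bp on either side of the hexamer, which is in capitals, on the plus strand. They lie at 3R:9881598-9881639 (Glut4EF), 3R:25446038-25446079 (Fur1), X:1953076-1953117 (Hr4), 3R:9024997-9025038 (neur), 3R:6992061-6992102 (Antp), 3R:9144459-9144500 (pum) and 3L:10851615-10851656 (tna, where 2 copies follow each other).
Glut4EF: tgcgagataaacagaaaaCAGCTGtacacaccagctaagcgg
Fur1: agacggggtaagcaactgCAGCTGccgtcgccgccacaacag
Hr4: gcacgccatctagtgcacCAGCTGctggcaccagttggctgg
neur: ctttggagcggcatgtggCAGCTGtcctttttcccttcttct
Antp: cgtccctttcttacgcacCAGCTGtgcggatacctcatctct
pum: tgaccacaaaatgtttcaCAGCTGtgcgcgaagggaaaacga
tna: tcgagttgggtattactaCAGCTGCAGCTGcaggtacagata

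The last 4 show CAGATG, here as its reverse complement CATCTG, at JIL-1 (3L:11084728-11084769) and at a second Hr4 peak (X:1984268-1984309), and AGATAA, a hexamer of the kind bound by GATA factors, as its reverse complement TTATCT at mnb (X:17880398-17880439) and ush (2L:510637-510678).
JIL-1: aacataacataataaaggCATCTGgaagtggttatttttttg
Hr4: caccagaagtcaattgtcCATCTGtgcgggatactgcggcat
mnb: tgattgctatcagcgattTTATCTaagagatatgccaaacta
ush: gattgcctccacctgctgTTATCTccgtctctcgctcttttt

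The highest far intronic peak was in osa, which encodes a subunit of the SWI/SNF chromatin remodelling complex, with a pooled signal of 364 (195 in replicate 3 and 170 in replicate 2). Its summit at 3R 17704416 lay 13934 bp from the nearest protein-coding TSS, that of osa itself, and 721 bp from the TSS of lncRNA:CR46035. Next came beat-Ib, a member of the beaten path family of immunoglobulin-domain proteins, with a pooled signal of 242 (119 in replicate 3 and 121 in replicate 2). Its nearest protein-coding TSS was not its own but that of CG13244, 5599 bp away, and the nearest beat-Ib TSS was 51146 bp away. The TSS of lncRNA:CR44867 was 402 bp away. The third was in brat, a translational repressor segregated in neuroblast divisions, with a signal of 237 (126 in replicate 3 and 110.5 in replicate 2).

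Each of these 3 peaks was high in both replicates. Lrch, a leucine-rich repeat protein, had 235 (119 in replicate 3 and 120.0 in replicate 2), and Gug, an Atrophin corepressor, had 229 (117 in replicate 3 and 112 in replicate 2). The other 5 of the 10 highest were in CG32486 (224), BicD, an adaptor for dynein transport (205), CG17124 (202), JIL-1, a histone H3 kinase (192), and babos (187). All 10 ranked among the highest 1941 regions of both replicates. Of the 10, 5 had no CANNTG within 50 bp of the summit, namely osa, beat-Ib, Gug, CG32486 and BicD.

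Signals of the 255 peaks ran from 64.2 to 364 with a median of 82.7 and quartiles of 71.6 and 105.7, on the pooled scale. In replicate 3 they ran from 16.0 to 195 with a median of 46.4, and in replicate 2 from 10.5 to 170 with a median of 38.6. All 255 had a summit within 200 bp in both relaxed lists. Of them, 14 were among the 200 highest peaks of the list.

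A difference in signal between far intronic peaks and other classes did not pass the test. Of the 255, 111 (43.5%, 95% Wilson interval 37.6 to 49.7) were above the list's median signal of 88.2, against 556 of 1069 promoter peaks (52.0%, 49.0 to 55.0), whose summits lie within 500 bp of a TSS. The difference of -8.48 points (interval -15.1 to -1.65) missed the threshold after adjustment over the 3 classes compared (two-sided Fisher's exact test, adjusted p = 0.0531). Against the 322 intronic peaks 501 to 3000 bp from a TSS the difference was -6.16 points (Fisher's exact test, adjusted p = 0.154), and against the 143 intergenic peaks over 3000 bp from a TSS it was -9.62 points (adjusted p = 0.113). With a limit of 5000 bp in place of 3000 bp the share was 37.4%, against the same 52.0% of promoter peaks, and this difference passed (Fisher's exact test, adjusted p = 0.00125).

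Agreement between the replicates is given as a description. Across the 255 peaks the 2 replicates' signals had a Spearman's rho of 0.335 and, as log2 values, a Pearson's r of 0.422, against 0.519 and 0.660 across the 1061 promoter peaks found in both. Promoter peaks also span a wider range of signal, up to 877 on the pooled scale. Peaks share their 2 libraries and are not independent replicates, and the authors' filter on reproducibility had already used them. Among the highest 1941 regions of both replicates were 148 of the 255 (58.0%, interval 51.9 to 63.9), against 701 of 1069 promoter peaks (65.6%, 62.7 to 68.4), a difference of -7.54 points that did not pass (Fisher's exact test, adjusted p = 0.0874). Summits matched within 500 bp gave 58.4%, against 66.9%, and passed (Fisher's exact test, adjusted p = 0.0383). A peak counts here when any of those regions has its summit within 200 bp, and at 3 of the 148 a lower region lay nearer in replicate 2 and gave the replicate's signal. The remaining peaks were among the highest of replicate 3 alone (55), of replicate 2 alone (46) or of neither (6).

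Signal was higher in replicate 3 at 170 of the 255 peaks (66.7%), with a median log2 difference (replicate 3 minus replicate 2) of 0.23 and an SD over peaks of 0.62. Over the whole list the median was 0.18. A more than 2-fold difference separated the replicates at 34 peaks, 29 of them higher in replicate 3. The widest was at a peak in SKIP, with 65.0 in replicate 3 and 10.5 in replicate 2, and the widest the other way was in Eip75B, with 16.0 in replicate 3 and 53.4 in replicate 2.

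**Figure D1:**
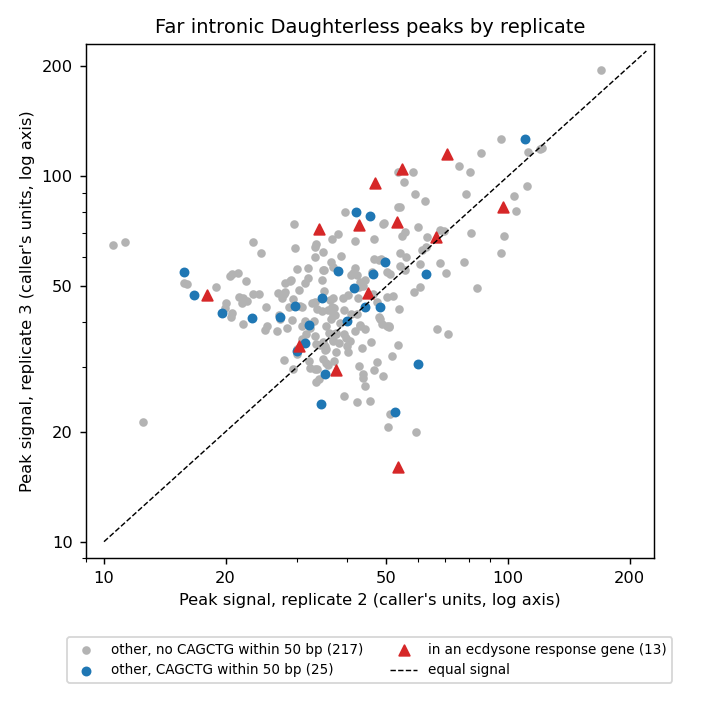
Signal of each of the 255 far intronic peaks in replicate 3 (vertical) against replicate 2 (horizontal), in the caller's units on log axes; red triangles are the 13 peaks in ecdysone response genes, blue points other peaks with CAGCTG within 50 bp, grey points the rest, and the dashed line marks equal signal. More points lie above the line (170) than below it.

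The rule sets a minimum for the distance of these peaks to a TSS and so favours long introns. Their distance to the nearest TSS had a median of 6295 bp and quartiles of 4498 and 10920 bp, and reached 44518 bp at a peak in jing, which encodes a zinc finger protein. The stretch between annotated exons around a summit had a median length of 12697 bp, and the nearest exon was a median of 3456 bp away, with 6 peaks within 200 bp of one. A summit fell in the first intron of at least 1 transcript of its host at 164 of 255 peaks (64.3%, Wilson interval 58.3 to 69.9), and the median signal there was 86.3, against 77.8 at the other 91. The share of far intronic sequence in first introns was not measured, so these values show no preference for first introns. For 62 of the 255 the nearest TSS belonged to a gene other than the host. Just inside the limit were the peaks in CG32066 (3008 bp, signal 113) and Mnt (3029 bp, 93.5), and just outside it those in kis (2992 bp, 69.5) and lili (2915 bp, 107).

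Peak density was lower at each longer range of distance from the TSS, in ranges set after the distances had been seen and with no test. Intronic sequence 3000 to 5000 bp from the nearest TSS held 81 peaks in 7.20 Mb, or 11.3 per Mb. From 5000 to 10000 bp it held 9.42 per Mb, from 10000 to 20000 bp 5.54 per Mb, and beyond 20000 bp 24 peaks in 10.6 Mb, or 2.26 per Mb. Median signal was 90.3 in the nearest of these ranges and 78.6 to 79.7 in the others. Over all 37.4 Mb of such sequence the density was 6.82 per Mb, against 14.5 for the whole list over the whole genome. It ran from 5.43 on 3R to 8.09 on X among the large arms, and chromosome 4 had 0 peaks in 0.388 Mb.

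**Figure D2:**
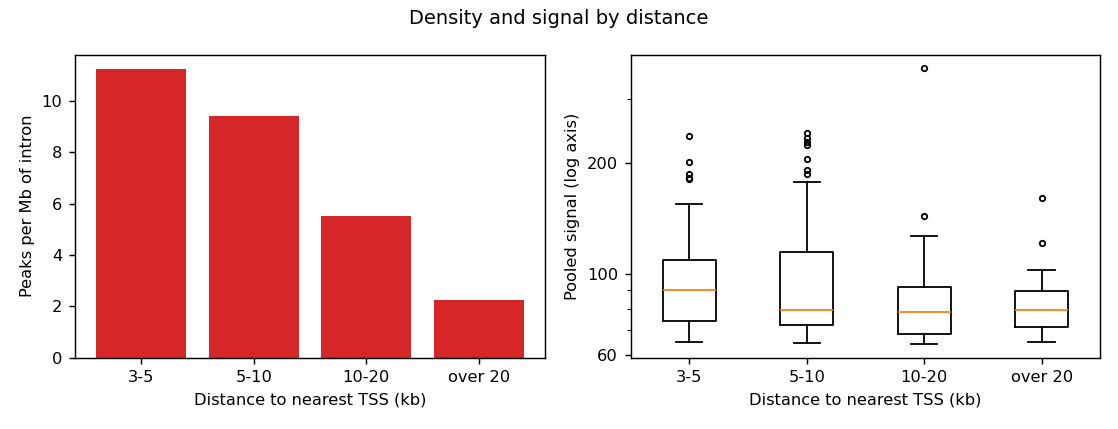
Left, far intronic peaks per Mb of intronic sequence in 4 ranges of distance to the nearest TSS; right, their pooled signal on a log axis, with boxes from the lower to the upper quartile, the median as a line, whiskers to the last value within 1.5 box lengths and circles beyond. Density is 11.3 per Mb in the nearest range and 2.26 per Mb in the farthest.

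CAGCTG and CAGATG were the E-boxes that passed as more frequent at the summits than beside them. CAGCTG was within 50 bp of 26 of 255 summits (10.2%) and in 9 windows of equal size centred 300 bp away (3.53%), a ratio of 2.89 (two-sided exact McNemar test, adjusted over 10 forms, p = 0.0407). CAGATG was at 24 summits (9.41%) and in 9 flanks (3.53%), which is 2.67 times as many (exact McNemar test, adjusted p = 0.0407). In the far intronic sequence as a whole, 3.54% of 101-bp windows held CAGCTG and 4.13% held CAGATG, both forms counted on either strand.

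Both calls depended on the settings. Each passed in 3 of 11 alternatives, with the ratio of CAGCTG at 1.86 or more in all 11. The highest 1941 regions of each replicate were also placed anew by the rule. This gave 253 far intronic regions in replicate 2 and 251 in replicate 3, which are not subsets of the 255. For CAGCTG the replicate 2 regions had 2.00 times as many at summits (adjusted p = 0.801 by the exact McNemar test) and those of replicate 3 gave 2.08 (adjusted p = 0.307). For CAGATG the replicate 2 regions gave 1.21 (exact McNemar test, adjusted p = 1.00) and the replicate 3 regions 1.92 (adjusted p = 0.307). With the limit at 5000 bp the ratios were 4.75 for CAGCTG (exact McNemar test, adjusted p = 0.0149) and 4.25 for CAGATG (adjusted p = 0.036). None of the other 8 forms passed, with ratios from 0.591 for CAATTG to 2.40 for CACCTG, which was at 12 summits and 5 flanks (exact McNemar test, adjusted p = 0.439). Any CANNTG was at 110 of 255 summits (43.1%), against 444 of 1069 promoter summits (41.5%) and 39.1% of far intronic windows.

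There were 29 CAGCTG sites at the 26 peaks, with 16 centred within 25 bp of the summit and a median distance of 22.5 bp. Only sites within 50 bp of the summit were counted, which bounds both values. They were not set against an even spread, so they do not show clustering at the summit. Read on the strand that comes first in the alphabet, the hexamer with its neighbours was ACAGCTGC at 9 sites, ACAGCTGG at 4, CCAGCTGC at 4, and at 3 each ACAGCTGT, then GCAGCTGA, and also GCAGCTGC. Windows with CAGCTG had a median GC content of 49.5%, against 35.6% without it, and a median signal of 84.5, against 82.7. Of the 43 peaks with CAGCTG or CAGATG, 7 had both.

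In the whole set of far intronic peaks, the share with CAGCTG was not shown to differ from that of other peaks. It was 10.2% of the far intronic peaks, against 10.7% of promoter peaks, a difference of -0.47 points (interval -4.19 to 4.18, Fisher's exact test, adjusted p = 1.00). Against the intronic peaks nearer to a TSS (10.2%) the difference was -0.05 points (interval -4.98 to 5.13), and against distal intergenic peaks (6.29%) it was 3.90 points (interval -2.20 to 9.14, Fisher's exact test, adjusted p = 0.608). Among peaks high in both replicates the difference from distal intergenic peaks was 8.36 points and passed (Fisher's exact test, adjusted p = 0.0333). In that set 14 of 148 far intronic peaks had CAGCTG, and there were only 91 distal intergenic peaks. The other 8 of the 9 alternatives did not pass. The intervals over all peaks allow differences of several points in either direction.

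**Figure D3:**
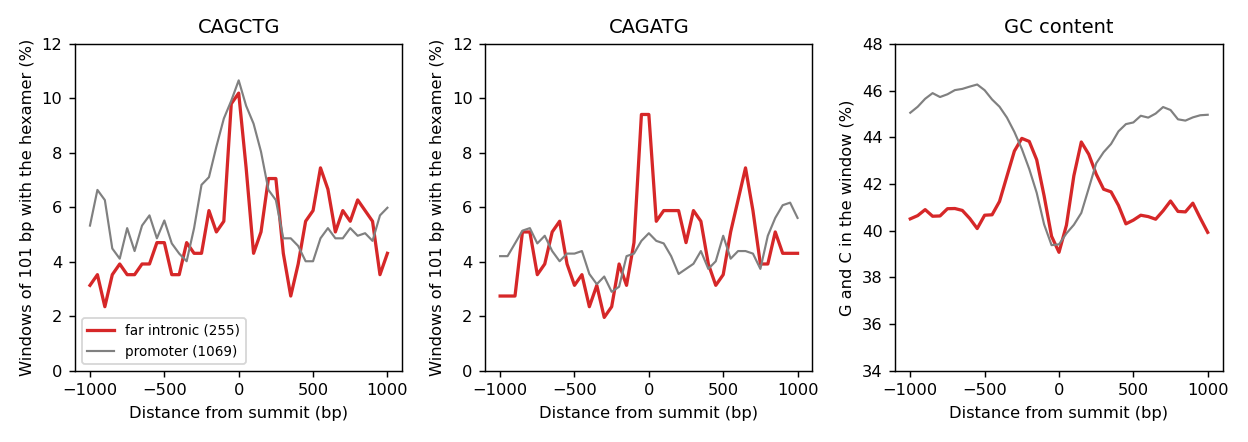
Share of 101-bp windows with CAGCTG (left) or CAGATG (middle) and GC content (right) by distance of the window's centre from the summit, in 255 far intronic peaks (red) and 1069 promoter peaks (grey), without error bars. The share with CAGCTG is highest at the summit in both classes (10.2% in far intronic and 10.7% in promoter peaks), CAGATG reaches 9.41% at far intronic summits, and GC content there is 39.1%.

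Beside the E-boxes, 6 other motifs were searched on both strands in the same windows, a list written after the E-box shares by class had been seen. They and CAGATG were compared with the 3 other classes of peaks in 21 tests. The p-values were at first adjusted over the 3 tests of each motif, and the wider adjustment over all 21 was chosen after those values had been seen. TATCGATA, the core of the DNA replication-related element of fly housekeeping promoters, was at 0 of 255 far intronic summits, which allows a share of up to 1.18% (a limit of 3 peaks of the 255, for counting error only), against 49 of 1069 promoter summits, and in 0.213% of far intronic windows. It was also at 0 of the 322 nearer intronic and 0 of the 143 distal intergenic summits, so both other classes shared its absence. The difference from promoter peaks was -4.58 points (interval -6.01 to -2.74, Fisher's exact test, adjusted p = 0.00103). It also passed by Fisher's exact test among the highest regions of replicate 3 (-4.51 points, adjusted p = 0.00097) and of replicate 2 (-3.80 points, adjusted p = 0.0161), placed anew by the rule. It did not pass among peaks high in both replicates (-3.85 points, Fisher's exact test, adjusted p = 0.0883) or above the median signal (-3.42 points, adjusted p = 0.455). AGATAA was at 27 far intronic summits (10.6%), against 54 of 1069 promoter summits, 5.54 points higher (interval 2.00 to 10.1, Fisher's exact test, adjusted p = 0.0207), and at 5.91% of far intronic windows. Among the highest regions of replicate 3, placed anew, the AGATAA difference was 2.99 points and did not pass (Fisher's exact test, adjusted p = 0.264), while in those of replicate 2 it was 5.17 points (adjusted p = 0.0302).

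Under the narrower adjustment over 3 tests, 2 more differences would have passed. AGATAA was at 10.6% of far intronic summits and 5.59% of nearer intronic ones (Fisher's exact test, adjusted p = 0.130 over 21 tests and 0.0435 over 3). It was at 6.29% of distal intergenic summits, and that difference passed under neither adjustment (Fisher's exact test, adjusted p = 0.471 over 21 tests). CAGATG was 4.36 points more frequent than at promoter summits (Fisher's exact test, adjusted p = 0.0798 over 21 tests and 0.0342 over 3), a comparison added after its share had been seen. CAGATG was at 7.45% of nearer intronic and 6.29% of distal intergenic summits. Neither difference passed under either adjustment (Fisher's exact test, adjusted p = 0.725 and 0.604 over 21 tests).

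Against their own flanks none of the 6 motifs passed, with AGATAA at 27 summits and 19 flanks (exact McNemar test, adjusted p = 1.00, unadjusted p = 0.291) and no motif under an unadjusted p of 0.05. GAGAGAG, the repeat bound by GAGA factor, was at 11 summits and 14 flanks, and at 1.32% of far intronic windows. TGGGAA, found in Su(H) sites, was at 14 summits and 17 flanks (6.43% of far intronic windows). The repeat CACACACA was at 7 summits and 10 flanks (2.63% of windows), and CAGGTAG, the site of the zygotic activator Zelda, at 2 summits and 1 flank (0.433%). The summit windows averaged 39.1% GC, and windows 200 bp to either side 43.8% and 43.3%, against 40.2% over far intronic windows.

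None of the 255 summits, and none of the 1941 of the whole list, was in an annotated transposable element, which covered 8.24% of the far intronic sequence. Of the 255 windows, 14 (5.49%) were mostly soft-masked as repeats in the assembly, against 5.56% over the whole list. A TSS of a gene that is not protein-coding lay within 500 bp of 9 summits (3.53%, Wilson interval 1.87 to 6.57), against 1.09% of the far intronic sequence, 3.42% of nearer intronic peaks, 14.7% of distal intergenic peaks and 5.87% of the whole list. The 5 strongest of them were in beat-Ib (242, 402 bp from lncRNA:CR44867), CG17124 (202, 160 bp from mir-9378), puc (109.9, 118 bp from lncRNA:CR44331), DIP-alpha (87.2, 262 bp from lncRNA:CR34335) and dlp (80.1, 78 bp from lncRNA:CR45888). With TSSs and exons of all gene types but transposable elements counted, 224 of the 255 peaks still met the rule.

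The 255 peaks were spread over 200 genes, or 6.62% of the 3021 protein-coding genes that have an intronic position more than 3000 bp from a TSS. Of the 200 genes, 149 held 1 peak and 51 held more. A peak inside overlapping genes was counted for each of them, as at 12 of the 255. Genes with long introns offer more positions. Split into 5 equal groups by that length, the group with least sequence held a peak in 0% of its genes and the group with most in 18.4%. Per Mb the order was not the same, with 12.4 in the fourth group and 5.49 in the fifth, whose genes have 17197 bp or more.

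Of the gene lists, ecdysone response genes had the highest share with a far intronic peak. All 12 lists with such sequence had a share above the 6.62% of all genes, and in 11 of them the median length of such sequence per gene was 6.89 kb or more. That 6.62% includes many genes with little such sequence, and the lists were not matched by length. Genes with 5721 to 17168 bp had a share of 10.6%, and those with more had 18.4%. Neuronal channel and synapse genes (median 19.9 kb) had 8.82%, and axon guidance and adhesion genes (38.7 kb) 20.6%. Planar polarity genes (12.9 kb) had 13.3% and Hox and segmentation genes (12.5 kb) 15.4%. Ecdysone is the steroid hormone of moulting and metamorphosis, which also has an embryonic pulse, and acts through the nuclear receptor EcR on a cascade of further nuclear receptors. Of 13 ecdysone response genes with far intronic sequence, 6 held a peak (46.2%), against 6.62% of all such genes and 18.4% of those with the most sequence. They held 13 peaks in 0.493 Mb, or 26.4 per Mb, against 6.82 over all such sequence, with a median signal of 118. Of the 13 peaks, Hr4 held 5 and Eip75B 4. Density was higher in the EGF receptor (26.7 per Mb) and bHLH partner (31.9 per Mb) lists and lower in the others. Neural precursor genes also had a median signal of 118, from 3 peaks. The ecdysone list is a description with no test, its genes are long (median 44.3 kb of such sequence), and it was singled out after its values had been seen. In each replicate's highest 1941 regions, placed anew by the rule, it also had 6 genes, and among peaks high in both replicates 4.

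Hr4, a nuclear receptor gene (FBgn0264562, X 1941940 to 2007956), had the most peaks of any gene, 5 in 46.6 kb of far intronic sequence. Their signals in replicate 3 were 104.5, 95.9, 73.5, 47.9 and 74.7 from the 5′ end onward, and in replicate 2 they were 54.7, 46.9, 42.7, 45.1 and 53.1. All 5 were higher in replicate 3. EcR itself (FBgn0000546) had 1 peak at 2R 6151301, with a signal of 187 (115 in replicate 3 and 70.5 in replicate 2).

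Eip75B, a nuclear receptor that binds haem, had 4 peaks, with pooled signals of 133, 109.0, 67.8 and 67.2. The replicates were alike at the strongest, with 68.1 in replicate 3 and 66.2 in replicate 2, and apart at the third, with 16.0 in replicate 3 and 53.4 in replicate 2. The peak in Hr3, a receptor that acts in the same cascade, had 178 (82.5 in replicate 3 and 97.4 in replicate 2) and also lay within the spans of CG46321 and CG12912. E23, an ABC transporter, had 67.4 and ftz-f1, a nuclear receptor, 65.9, both near the bottom of the list. Of the 13 peaks, 10 were higher in replicate 3, with a median log2 difference (replicate 3 minus replicate 2) of 0.49, against 0.23 over the 255.

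**Figure D4:**
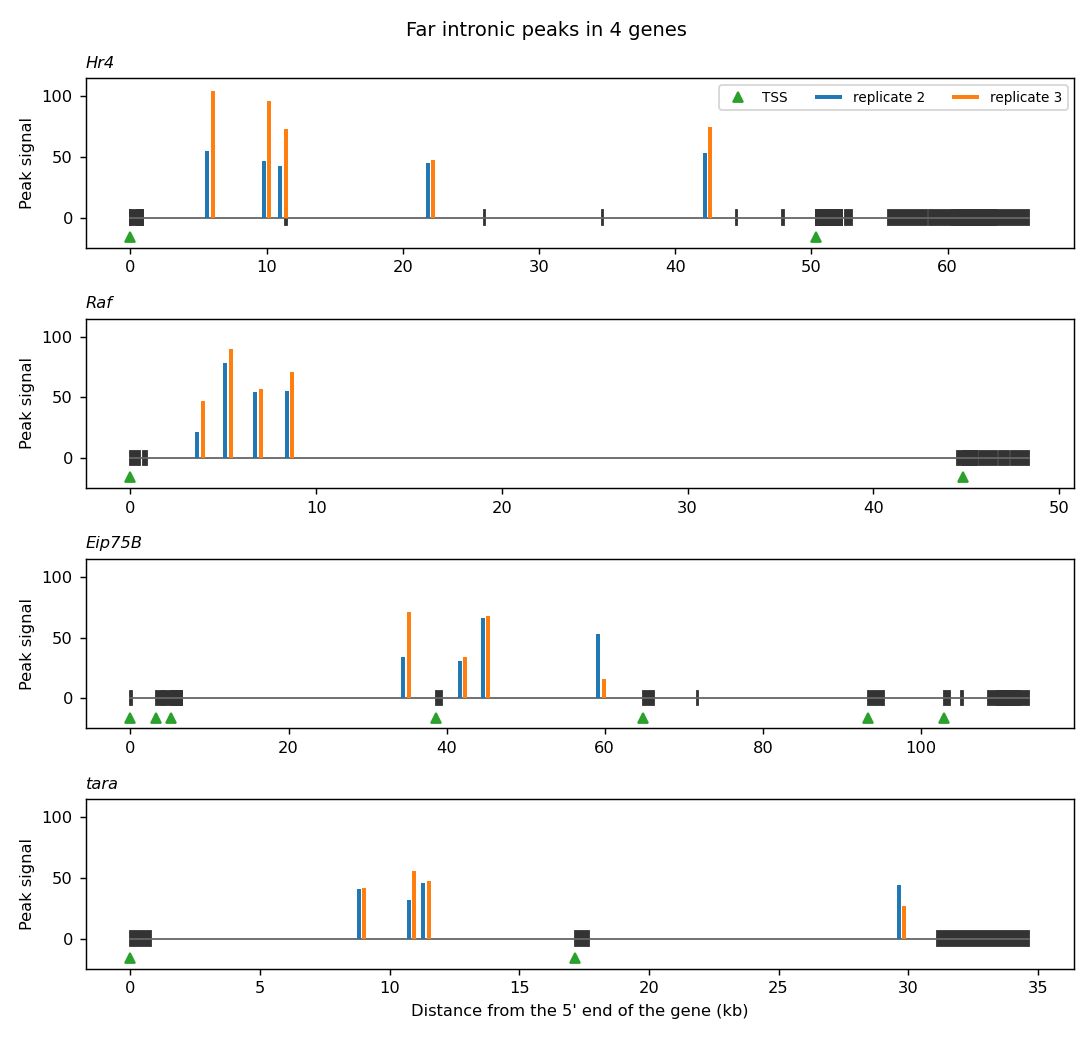
Far intronic peaks in the 4 genes that hold most of them (Hr4, Raf, Eip75B and tara) by distance from the 5′ end of each gene in kb, with bars for the signal (caller's units) in replicate 2 (blue) and replicate 3 (orange), dark boxes for exons and green triangles for TSSs. All 5 Hr4 peaks are higher in replicate 3, the first at 104.5 against 54.7 in replicate 2.

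The Notch, EGF receptor, and Wnt, Hedgehog and Dpp lists had shares of 30.8% to 36.4%. Of Notch pathway genes 4 of 11 held a peak, with 5 peaks in 0.218 Mb: neur, a ubiquitin ligase that acts on the ligand Delta (118), mam, a coactivator of Notch (105.5), N, the receptor (104.5 and 66.3 for its 2 peaks), and cno, a junction protein (77.4). Of 21 Wnt, Hedgehog and Dpp genes 7 did, at 21.9 per Mb, led by fz, a Wnt receptor (161), dpp, a BMP ligand (93.2), and dlp, a glypican with 3 peaks (92.1 at most). The fz peak had 103 in replicate 3 and 58.1 in replicate 2, and the dpp peak 66.0 in replicate 3 and 23.4 in replicate 2.

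Of 13 EGF receptor pathway genes 4 held a peak, at 26.7 per Mb. They were aos, a secreted inhibitor of the receptor (182; 80.3 in replicate 3 and 105 in replicate 2), S, which helps to export the ligand (164 and 84.7 for its 2 peaks), vn, a ligand (98.1), and pnt, an ETS factor downstream (70.5). The aos peak also lay within the span of CG33158 on the other strand. Raf, the kinase of the same cascade, stood in the list under its older symbol phl and was not matched, and with it 5 of 14 genes held a peak, at 42.6 per Mb. It held 4 peaks within 8.57 kb of the 5′ end of the gene, with pooled signals of 66.4, 169, 112 and 124 from the 5′ end onward.

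Of 13 neural precursor genes 3 held a peak: brat, neur and pros, a homeodomain factor (92.3). Of 13 genes on the Hippo and growth list 3 did, with InR, the insulin receptor (157, 90.9 and 64.9 for its 3 peaks), Myc (94.5) and bru3 (64.8). This list was used as written, and whether bru3 acts in growth control was not checked. That gene alone has 256 kb of the list's 0.465 Mb of such sequence. Of 6 bHLH partner genes with such sequence, 1 did, crp, a helix-loop-helix factor, with 2 peaks (140 and 92.9). Its rate of 31.9 per Mb rests on these 2 peaks in 0.0627 Mb.

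Peaks per Mb were below the 6.82 of all such sequence in 3 lists, of axon guidance, channel and synapse, and planar polarity genes. The planar polarity value was close to it, at 6.56 from 2 peaks. For comparison, genes with 17197 bp or more of such sequence had 5.49 per Mb as a group. Median lengths were 38.7 kb in the axon guidance list and 19.9 kb in the channel and synapse list. Axon guidance and adhesion genes had 7 of 34 genes and 4.54 peaks per Mb, led by nvy (104), Fas3, a cell adhesion protein (96.8), and fra, the Netrin receptor with 2 peaks (86.8 at most). Neuronal channel and synapse genes had 3 of 34 genes and 3.03 per Mb, with dnc, a phosphodiesterase (90.3), Ca-alpha1T, a calcium channel (65.3), and Shal, a potassium channel (65.0). Mesoderm and muscle genes had 3 of 17 genes and 7.75 per Mb, with how (115), Mef2 (101) and kirre (81.8). Planar polarity and epithelial genes had 2 of 15, fz and scrib (66.3), and Hox and segmentation genes 2 of 13, Antp (109.8 and 87.9) and lab (85.8). No cytosolic ribosomal protein gene of the list had far intronic sequence, so none could hold such a peak.

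**Figure D5:**
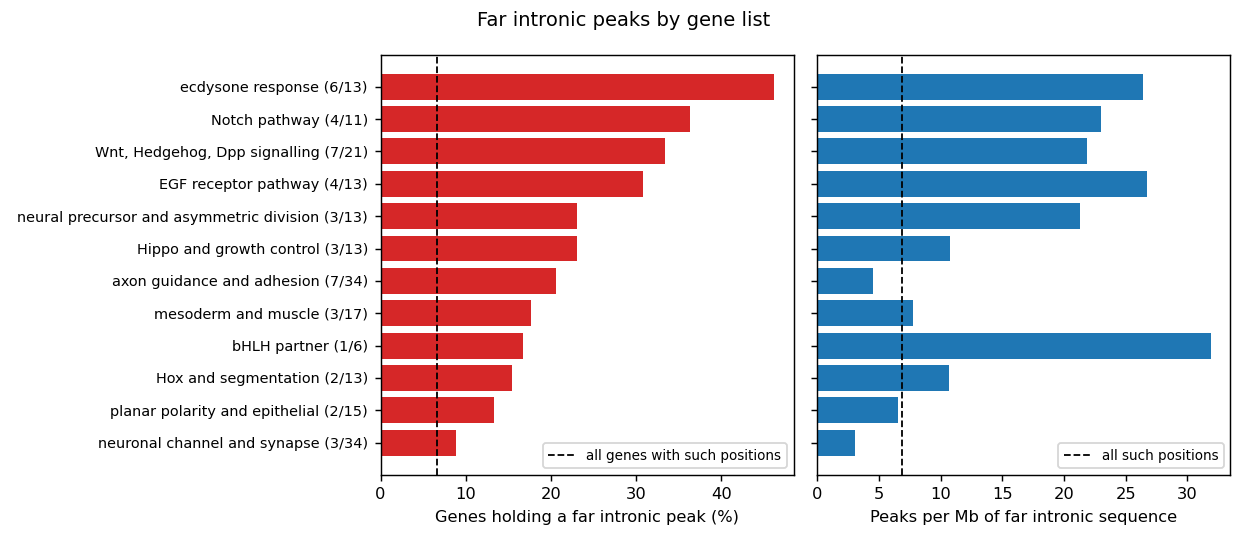
For 12 gene lists, the share of genes with far intronic sequence that hold a far intronic peak (left, with counts beside each name) and peaks per Mb of that sequence (right); dashed lines mark 6.62% and 6.82 per Mb over all genes and positions. Ecdysone response genes have the highest share, 46.2%, and neuronal channel and synapse genes the lowest density, 3.03 per Mb.

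Beside Hr4, Raf and Eip75B, the gene with most peaks was tara, and 8 genes held 3 peaks each, of which Lrch had the highest signal. These 8 include CG6191 and CG45088, which overlap and share the same 3 peaks. The peaks of tara, a transcriptional coregulator, were 4 and had pooled signals from 68.8 to 88.4. Those of Lrch had 235, 119 and 88.2, in a single stretch of 8721 bp between exons. Among the 26 peaks with CAGCTG, those of highest signal were in brat (237), Glut4EF and the overlapping CG46467 (125; 79.7 in replicate 3 and 42.1 in replicate 2), Fur1, a furin protease (121), Hr4 (118), neur (118), Antp (109.8), pum, an RNA-binding repressor (101), and tna (95.5; 22.6 in replicate 3 and 52.7 in replicate 2). Of these 8, the tna peak was not among the highest 1941 regions of both replicates. Adjacent peaks were within 5000 bp of each other in 30 cases, and the closest, both in Lrch, were 216 bp apart.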

How the data were processed

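ChIP-seq peak lists of 2 replicates were used. Per the file headers and the deposited notes, coordinates are in dm6, a control library, not analysed here, entered the calling, and the thresholded list passed the authors' filter on irreproducible discovery rate, built on relaxed lists of 30000 regions for each replicate and their pool. For the caller, the aligner, their versions and the thresholds: not given in the sources used here. The signal is the authors' peak height, used only to describe, rank and filter within a list. The authors also deposited a −log10 q value, which ends at 3.54 in the thresholded list and was not used to rank. No list gives read counts, and the depth is unknown. The dm3 copies were not used.

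The members and the gene lists were chosen with earlier results of these data known. Of 341 listed symbols 330 were in the annotation, and 5 more matched a RefSeq synonym but were not counted. Named genes are the hosts of the 10 highest peaks, the 5 genes with most peaks (ties broken by signal), the 8 highest peaks with CAGCTG and up to 3 genes per list; other genes named were chosen after their values were seen. Summits were placed against Ensembl release 115 (BDGP6.54), with 13945 protein-coding genes and 19252 TSSs on 6 arms. Summit and flank windows (101 bp, flank 300 bp to a side fixed by a seeded hash) were compared with exact McNemar tests, and classes with Fisher's exact tests, adjusted by the Benjamini-Hochberg method; the 6 further motifs and the CAGATG class comparison, not part of the original plan, were adjusted over 21 tests, after an adjustment over 3 tests per motif had been seen. The distance ranges, the first intron grouping, the comparison of any CANNTG, and the alternatives for CAGATG, for both other motifs that passed and for ecdysone genes were also chosen after values were seen. Difference intervals are Newcombe 95% intervals. All p-values and intervals measure the spread over peaks, not between embryo collections, and treat peaks as independent. Both tests were run on artificial sequences of even base composition, with and without planted hexamers. Few calls without planting were required of both tests, and recovery of the planted hexamer of the McNemar test only. These sequences do not match the base composition of the peaks, so they do not show the power for the differences reported. Alternatives varied the TSS distance, annotation, windows, flanks, peak set, matching distance and replicate. Python 3.11.15, NumPy 2.4.6, SciPy 1.17.1, pandas 2.3.3 and Matplotlib 3.10.9 were used. The sequence of 1 of the strongest peaks is not reported here.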

Additional observations from a re-analysis of the deposited data

How the results depend on the processing

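CAGCTG at summits against flanks kept its direction in all 11 alternatives (ratios 1.86 to 4.75; exact McNemar test, adjusted p 0.0149 to 1.00) and passed in 3. It no longer passed with windows of 25 bp on either side (2.17), a flank 500 bp away (1.86) or on the other side (2.00), a limit of 2000 bp (2.27), peaks above the list's median signal (2.00), peaks high in both replicates (2.00), and without replicate 2 or 3 (2.00 to 2.08). The cause was not tested. The difference from promoter peaks turned positive with a limit of 5000 bp (0.26 points), above the median signal (0.38) and without replicate 2 (0.0427), and was -2.96 without replicate 3. That from nearer intronic peaks turned positive with 25 bp windows (1.06), limits of 2000 bp (0.61) and 5000 bp (0.99), and above the median signal (3.31), and none of these passed. That from distal intergenic peaks passed only among peaks high in both replicates, of 9 alternatives (8.36 points, Fisher's exact test, adjusted p = 0.0333, range over alternatives 0.0333 to 0.809). The share above the median signal passed with the 5000 bp limit (37.4%), and that among the highest of both replicates with 500 bp matching (58.4%). By construction, peaks above the median and peaks high in both replicates left 111 and 148 peaks in 99 and 131 genes. Of the alternatives added after values were seen, CAGATG at summits lost its call in 8 of 11 and AGATAA in 6 of 9, while TATCGATA lost its call in these same 2 smaller sets. No paired analysis was possible because there is only 1 group of samples. The unknown depth and the mixture of tissues limit what absence from the list shows.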

Other observations

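Some hosts not described above encode chromatin proteins. They were picked by hand from the 200 host genes after their values were seen, so nothing is said of how often such genes held a peak. Peaks lay in trx, a histone methyltransferase (154; 61.5 in replicate 3 and 95.9 in replicate 2), Mi-2, a nucleosome remodeller whose span there overlaps Su(Tpl) (155; 69.9 and 80.9), Kdm4B, a histone demethylase (128; 62.7 and 61.1), gpp, the H3K79 methyltransferase (126; 54.4 and 70.3), and Psc, a Polycomb group protein with 2 peaks (91.4 at most). Smr, a corepressor of nuclear receptors including EcR, had 2 peaks, the stronger of them with 127 (79.9 in replicate 3 and 39.6 in replicate 2).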
